A study of Mus musculus with 145 samples.

Results

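Insertions of a piggyBac transposon were examined in the genes of 5 kinases of the MAP4K family, Tnik, Map4k3, Map4k4, Map4k5 and Mink1, in mouse mammary tumours. The members were picked by name with earlier results of these data in view. Their rows in the authors' table of 13391 gene regions were found by Entrez identifier, and 4 of the 5 had one. Map4k5 (identifier 399510) had no row and is left out of the comparisons. The 4 regions held 90 of the 198107 deposited insertion sites: 46 in Tnik, 30 in Map4k3, 13 in Map4k4 and 1 in Mink1. A tumour was counted as hit in a gene when a site inside its region had at least 10 reads in that tumour. Where several tumours had reads at the same position and strand, the site was assigned to the one with the highest count.

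The resistant group held 51 tumours from 25 mice. Treatment with BYL719 (alpelisib), an inhibitor of PI3K alpha, began at a volume of 250 mm3 with a daily dose of 30 mg/kg, and these tumours had kept growing under the drug for at least 3 measurements in a row within 3 weeks. The untreated group held 94 tumours from 23 mice. Both groups carried WAP-Cre, LSL-PB, the LSL-PIK3CA(H1047R) allele and the ATP1 transposon. Cre from the WAP promoter, which acts in mammary cells from late pregnancy, turned on the piggyBac transposase and an activated PI3K alpha, so the untreated tumours carry the oncogene and the mobile transposon as well. The protocol states 53 mice, but the titles as read here name 48, most with several tumours, and tumours of a mouse are not independent. The title of resistant tumour 51 lacks a separator and was read as the mouse of resistant tumour 50. Untreated 58 and 88 name the same gland of a mouse, the second with the suffix R2, which the labels do not explain. They may be libraries of 1 tumour, which would leave 93 untreated tumours, and neither was hit in a member. The question of the comparison was which genes carry insertions more often in tumours that grow under the drug.

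MAP4K kinases are serine/threonine kinases related to yeast Ste20, with a kinase domain at the N-terminus and, in the members examined here, a citron homology domain at the C-terminus. Overexpressed in cells, they activate the JNK cascade, and MAP4K kinases can phosphorylate LATS kinases beside MST1 and MST2, which places them in the Hippo pathway that restrains YAP. TNIK, MAP4K4 and MINK1 are close relatives that bind NCK and the small GTPase RAP2. TNIK also binds TCF4, the product of Tcf7l2, and acts in WNT target transcription in intestinal cells. MAP4K3, also called GLK, is known for amino acid signalling to mTORC1 and for T-cell receptor signalling. The ATP1 transposon can drive a gene from a promoter it carries or truncate it through splice acceptors and polyadenylation signals, depending on where and in which orientation it lands.

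The sites with the most reads in each gene, and the sites the results below turn on, are shown with the 8 deposited bases around the insertion. They read from 5′ to 3′ on the strand of the site, and the 4 bases before the insertion are in capitals. TTAA is the target of piggyBac. Coordinates are in mm10, and the first 4 lines are neighbouring Tnik sites.
Tnik, chr3:28496890-28496897, plus strand, resistant tumour 8: TTAAttat
Tnik, chr3:28497964-28497971, plus strand, untreated tumour 39: TTAAgaga
Tnik, chr3:28498409-28498416, plus strand, untreated tumour 22: TTAAtcaa
Tnik, chr3:28498492-28498499, plus strand, resistant tumour 21: TTAAaaac
Tnik, chr3:28426598-28426605, minus strand, resistant tumours 37 and 27: TTAAatgg
Tnik, chr3:28416028-28416035, minus strand, resistant tumour 13: TCAAgcag
Map4k3, chr17:80720504-80720511, plus strand, resistant tumour 13: TTAAagaa
Map4k3, chr17:80659619-80659626, minus strand, resistant tumour 44: TTAAagtt
Map4k3, chr17:80689290-80689297, minus strand, untreated tumour 63: TTAAttag
Map4k4, chr1:39957166-39957173, minus strand, untreated tumour 45: TTAAtgtt
Map4k4, chr1:39958646-39958653, minus strand, untreated tumour 25: TTAAgaaa
The Tnik site that begins with TCAA had the second highest count of that gene without lying at TTAA. Of the sites that made a hit, 23 of 26 in Tnik, 15 of 15 in Map4k3 and 5 of 6 in Map4k4 lay at TTAA. At any number of reads, 38 of the 46 deposited sites in Tnik, 27 of 30 in Map4k3, 12 of 13 in Map4k4 and the single Mink1 site did. Of all 198107 deposited sites, also at any number of reads, 84.7% lay at TTAA. Exons and introns were not assigned, since only the ends of each gene were used.

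Libraries differed in depth in a way that moves with the groups. Resistant libraries held a median of 136932 reads (51 to 1604365) and untreated libraries 48339 (2950 to 938987). The median number of kept sites of at least 10 reads was 473 in resistant and 431 in untreated libraries. Library titles were of the forms Tgtumor and Mouse among resistant tumours and TgTum and tgTum among untreated ones. No form spans both groups, so title form and treatment cannot be told apart, and the labels do not say what the forms mean. Median kept sites were 637 (Tgtumor), 241.5 (Mouse), 729 (TgTum) and 258 (tgTum). The part that depth plays in the shares below was not tested beyond the alternative ways of calling a hit.

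Tnik was the member hit most often. Among resistant tumours 12 of 51, from 9 mice, had a hit (23.5%, Clopper-Pearson 95% interval 12.8 to 37.5). Among untreated tumours 7 of 94, from 5 mice, had one (7.45%, 3.05 to 14.7), a difference of 16.1 percentage points. With the R2 library joined to its partner the untreated share was 7 of 93 (7.53%). This is a description, since the shares of Tnik were known when the members were picked. In the two-sided Fisher exact test fitted over every gene hit in at least 5 tumours, Tnik had an adjusted p of 0.990 (Benjamini-Hochberg over 2558 genes). In that test 0 of 2558 genes (0%) passed the threshold of 0.05, and 77 genes (3.01%) had an unadjusted p under 0.05. Nothing is read from this for the members, which were picked on the same contrast. The intervals cover counting of tumours only, and they and the Fisher exact test take tumours of the same mouse as independent. Amplified reads here carry no molecular identifier, and several may stem from 1 molecule.

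**Figure D1:**
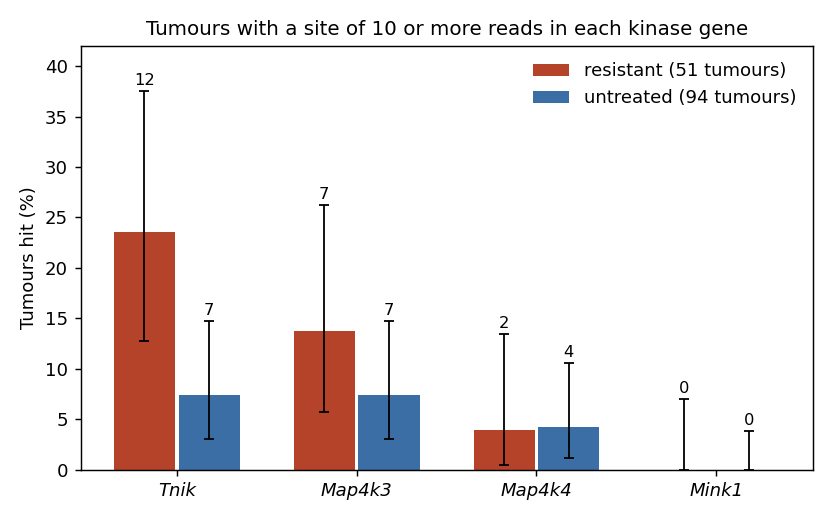
Percent of resistant tumours (red, 51) and untreated tumours (blue, 94) with a site of at least 10 reads in Tnik, Map4k3, Map4k4 and Mink1, with Clopper-Pearson 95% intervals as bars and the number of hit tumours above each. Tnik has 12 and 7 hit tumours, Map4k3 7 and 7, Map4k4 2 and 4, and Mink1 has none in either group.

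Tnik (identifier 665113) occupies positions 28261214 to 28670585 of chromosome 3 as a region of 409 kb on the plus strand. The 26 sites that made a hit fell on 15 positions in resistant tumours and 11 in untreated tumours. Per 10000 kept sites of at least 10 reads, that is 4.02 Tnik sites for resistant and 1.72 for untreated tumours. Reads at these sites ran from 12 to 4908 in resistant tumours, with a median of 81, and from 11 to 224 in untreated tumours, with a median of 35. Over all kept sites of at least 10 reads the medians were 36 and 43 reads. The ranges of the groups overlap, and 7 of the 15 resistant sites but 1 of the 11 untreated sites had 100 reads or more. Among all kept sites of at least 10 reads, 26.7% in resistant and 25.05% in untreated tumours had 100 or more. These read counts are not scaled to the depth of the library. At 0.1% of the reads of the library or more, Tnik had 5 of the 15 resistant and 3 of the 11 untreated sites. The shares of all kept sites at that limit were 17.8% in resistant and 31.3% in untreated tumours. As a share of its library, a Tnik site reached 3.32% at most in resistant tumours and 0.214% in untreated tumours, with medians of 0.0803% and 0.0336%.

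One insertion stood apart from the others. In resistant tumour 8 the plus-strand site at 28496894 had 4908 reads, which was 3.32% of the library and the seventh highest count among its sites. The next highest Tnik counts were 843 reads at 28416031 in resistant tumour 13, 485 reads at 28308807 in resistant tumour 40 and 310 reads at 28381135, again in tumour 13. These ranked 30, 158 and 220 in their libraries. In untreated tumours the highest count was 224 reads at 28498413 in untreated tumour 22, at rank 170. The best rank in the untreated group was 53, for 35 reads at 28627360 in untreated tumour 10. Beside the reads and a second number, the third number deposited per site and library is a whole number that the file headers do not define. It is 1 at most sites. At the site of tumour 8 it was 121, at 28416031 in tumour 13 it was 3, and at 28497968 in untreated tumour 39 it was 2, and the other 23 Tnik sites had 1. Over all kept sites of at least 10 reads, 85.2% of those in resistant and 86.01% of those in untreated tumours had 1.

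That leading site lay in a close group of Tnik insertions. Between 28496894 and 28498496, a span of 1602 bp at 57.5% to 57.9% of the way along the gene, 4 tumours from 4 mice each had a site, 2 of them resistant (tumours 8 and 21) and 2 untreated (tumours 39 and 22). The reads were 4908 and 13 in the resistant tumours and 44 and 224 in the untreated tumours. All 4 sites had the orientation of the gene. The nearest other hit site was 29.7 kb upstream on one side and 7.13 kb downstream on the other. The downstream one, at 28505624 in resistant tumour 3 with 270 reads, had the same orientation too. The closest other pair, 28282143 and 28282436 in resistant tumours 9 and 32, lay 293 bp apart, both against the orientation of the gene. The group of 4 was picked out after the positions were seen, and it has no test. At 28426601 the minus-strand site had 81 reads in resistant tumour 37 and 25 reads in resistant tumour 27, from different mice. It is the only site of the 4 regions with at least 10 reads in more than 1 library, and by the rule it counted for tumour 37 alone.

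Tnik sites lay in both orientations and along most of the gene. In resistant tumours 8 of 15 sites had the orientation of the gene (53.3%, 26.6 to 78.7) and in untreated tumours 5 of 11 (45.5%, 16.7 to 76.6). These intervals take sites as independent, but the 26 sites came from 19 tumours, some of which held several. The strand of Tnik, like that of Map4k4, was inferred from which end of the authors' region reaches past the RefSeq gene. Over all gene regions with a strand the shares were 49.7% of 18367 resistant sites and 49.7% of 30481 untreated sites. In these counts, and in the positions over all genes below, a site in overlapping regions counts once for each region. Among the 8 sites of at least 100 reads, 6 had the orientation of the gene. The sites of 843 and 310 reads among them both came from resistant tumour 13. The shares over all gene regions are for at least 10 reads, so they are no reference at 100, and nothing is read from the 8. With the gene cut into 3 equal parts from the 5′ end, Tnik had 6, 6 and 3 sites in resistant tumours and 3, 6 and 2 in untreated tumours. The median site lay 40.3% and 43.4% along the gene, and over all genes 43.8% and 43.7%. No site of at least 10 reads lay in the first 4.95% of Tnik, and the first one was 20.2 kb from the start of the gene, in resistant tumour 9.

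**Figure D2:**
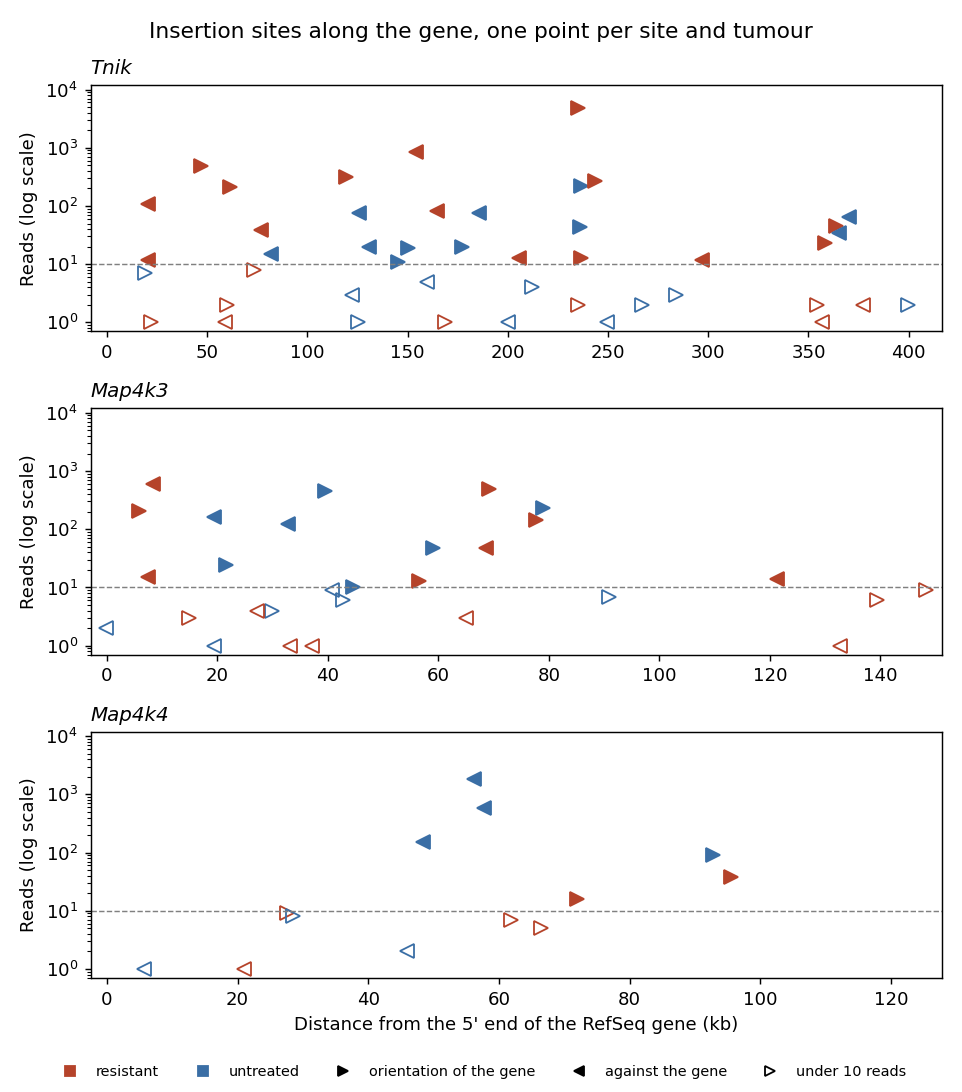
Sites along Tnik, Map4k3 and Map4k4 by distance from the 5′ end of the RefSeq gene (kb) and reads in the tumour (log scale), in resistant (red) and untreated (blue) tumours, with the triangle pointing right for the orientation of the gene and left against it. Open triangles are sites under 10 reads; the highest point is the Tnik site with 4908 reads in resistant tumour 8, beside 3 further same-orientation sites within 1602 bp.

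The Tnik hits were unevenly spread over mice and libraries. One resistant mouse had all 3 of its tumours hit (8, 9 and 10), another 2 of 4 (12 and 13), and 7 further mice 1 each. In the untreated group 2 mice had 2 hit tumours each, and 3 mice had 1. Without the 2 resistant mice with several hit tumours, left out after the data were seen, Tnik was hit in 7 of 44 remaining resistant tumours (15.9%) and in 7 of 94 untreated tumours, a difference of 8.46 percentage points. Counted over mice, 9 of 25 resistant mice (36%) and 5 of 23 untreated mice (21.7%) had a hit tumour. By title form, 9 of 35 Tgtumor libraries (25.7%) and 3 of 16 Mouse libraries (18.8%) were hit in the resistant group, and 7 of 61 TgTum libraries (11.5%) and 0 of 33 tgTum libraries in the untreated group. Hit libraries held more sites: a median of 1007 kept sites in the resistant libraries with a Tnik hit and 398 in those without, and 1008 and 417 in the untreated ones.

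**Figure D3:**
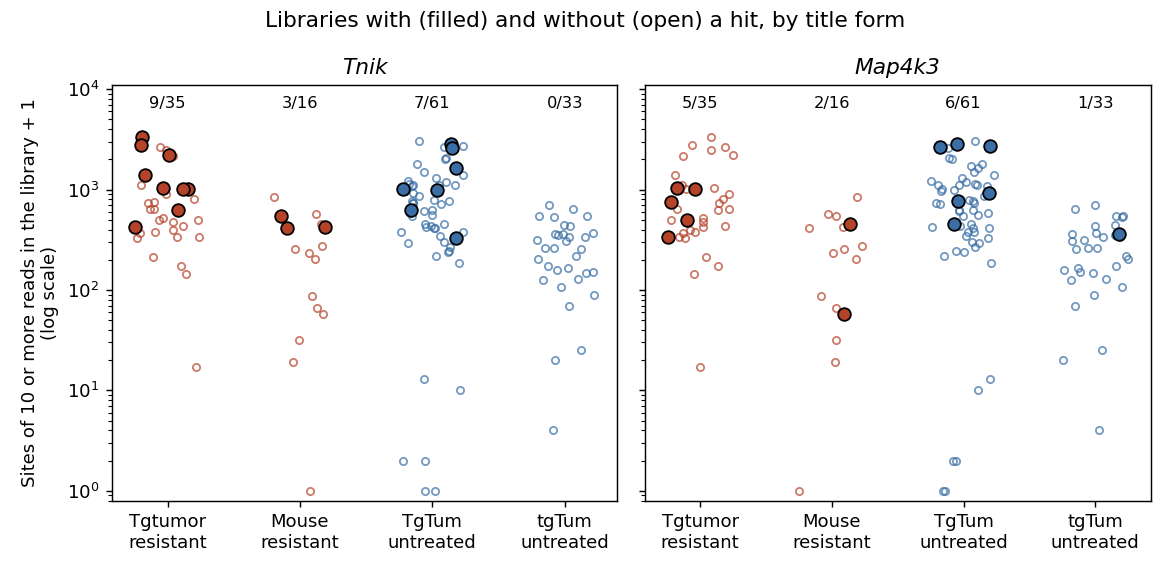
Number of kept sites of at least 10 reads in each library, plus 1, on a log scale, by title form, with libraries hit in Tnik (left) or Map4k3 (right) filled and the others open. The counts above give hit libraries of all, and the libraries with a Tnik hit sit between 331 and 3320 sites.

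Map4k3 was hit in as many tumours of each group, 7 of 51 resistant (13.7%, 5.70 to 26.3) from 6 mice and 7 of 94 untreated (7.45%, 3.05 to 14.7) from 6 mice. The difference was 6.28 percentage points, the intervals of the shares overlap, and the adjusted Fisher exact p was 1 over 2558 genes. Without the mouse of resistant tumours 22 and 23, both hit, Map4k3 was hit in 5 of 48 resistant tumours (10.4%), a difference of 2.97 percentage points. Over mice the order turned, with 6 of 25 resistant mice (24%) and 6 of 23 untreated mice (26.1%). The region (identifier 225028) spans positions 80580512 to 80730093 of chromosome 17, 150 kb on the minus strand. Its 15 hit sites give 10.03 per 100 kb, against 6.35 in Tnik, 4.71 in Map4k4 and a median of 5.51 over 2193 tested gene regions outside chromosome 10, which held 18.1% of all sites (6.06% at most on another chromosome). Tested regions are those hit in at least 5 tumours, so that median is over regions chosen for having hits. Per 10000 kept sites, Map4k3 held 2.15 in resistant and 1.10 in untreated tumours.

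Reads at Map4k3 sites overlapped between the groups. They ran from 13 to 594 in resistant tumours, with a median of 95, and from 10 to 454 in untreated tumours, with a median of 122. Sites of 100 reads or more numbered 4 of 8 in resistant and 4 of 7 in untreated tumours. The site with the most reads was at 80720508 in resistant tumour 13, with 594 reads at rank 58, followed by 501 reads at 80659622 in resistant tumour 44. The highest untreated count was 454 reads at 80689293 in untreated tumour 63, at rank 102. The largest shares of a library were 0.381% in resistant tumour 49, at 80722945, and 0.410% in untreated tumour 63. The third deposited number was above 1 at 3 of the 15 sites, with 7 at 80720508 and 3 at 80651202 in resistant tumours and 2 at 80684330 in untreated tumour 22.

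In the same 3 parts, Map4k3 had 3, 4 and 1 sites in resistant tumours and 5, 2 and 0 in untreated tumours. Medians were 42.2% along the gene in resistant and 26.6% in untreated tumours, with 8 and 7 sites. Over all genes 40.2% of resistant and 40.4% of untreated sites lay in the first of the 3 parts. The resistant sites included a group at the start: 80722945, 80721344 and 80720508, at 5.86, 7.46 and 8.30 kb from the 5′ end, belonged to 3 tumours of 3 mice (tumours 49, 22 and 13), the first in the orientation of the gene and the other two against it. Their reads were 210, 15 and 594. This group too was picked out after the positions were seen, and it has no test. In all, 4 of 8 resistant sites (50%, 15.7 to 84.3) and 5 of 7 untreated sites (71.4%, 29.04 to 96.3) had the orientation of the gene. Here too the intervals take sites as independent, and the 15 sites came from 14 tumours.

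Map4k4 (identifier 26921, positions 39898913 to 40026310 of chromosome 1, 127 kb, plus strand), the member most studied for stress signalling and cell migration, was hit in 2 of 51 resistant tumours (3.92%, 0.478 to 13.5) and 4 of 94 untreated tumours (4.26%, 1.17 to 10.5). The difference was -0.33 percentage points (adjusted Fisher exact p = 1). The resistant sites had 38 and 16 reads (tumours 10 and 21) and the untreated sites 1844, 594, 149 and 92 (tumours 45, 25, 56 and 5), and these read counts do not overlap. Both resistant sites had the orientation of the gene, whereas 3 of the 4 untreated sites, those of 1844, 594 and 149 reads, lay against it, 1.48 and 7.82 kb apart. With 6 sites no order can be read from this. The third deposited number was 14 at 39958649 in untreated tumour 25, the site at rank 21 of that library. It was 2 at 39957169 in untreated tumour 45 and 2 at 39996510 in resistant tumour 10.

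Mink1 (identifier 50932, positions 70560881 to 70614482 of chromosome 11, 53.6 kb, plus strand), the smallest region, was hit in 0 of 51 resistant tumours (upper bound 6.98%) and 0 of 94 untreated tumours (upper bound 3.85%). Its single site, at TTAA at position 70569405, had 1 read in untreated tumour 21.

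Of the 3 members tested, 2 had a higher share in resistant tumours, and 1358 of 2558 tested genes (53.1%) did. The other member, Map4k4, was lower, as were 1200 genes (46.9%). Nothing is read from these counts either. At least 1 member was hit in 17 of 51 resistant tumours (33.3%, 20.8 to 47.9), which came from 12 mice. The untreated group had 17 of 94 (18.1%, 10.9 to 27.4), from 11 mice. The difference of 15.2 percentage points became 7.18 at 100 reads, 5.05 at 0.1% of the reads of the library and 3.59 where the third deposited number was at least 2. Against TgTum libraries alone it was 7.10, and against tgTum libraries alone 30.3. Over mice it was 0.17, with 12 of 25 resistant mice (48%) and 11 of 23 untreated mice (47.8%). Hits in more than 1 member occurred in 4 resistant tumours and in 1 untreated tumour. Tnik was hit in all 5, together with Map4k3 in resistant tumours 9 and 13 and untreated tumour 22, and with Map4k4 in resistant tumours 10 and 21. Of the 4 resistant ones, tumours 9 and 10 came from the same mouse. Those 5 libraries held from 418 (resistant tumour 21) to 3320 kept sites (resistant tumour 10).

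How a hit is called changed the size of the Tnik difference. With at least 100 reads, Tnik was hit in 6 resistant and 1 untreated tumours (11.8% and 1.06%), and with at least 0.1% of the reads of the library in 5 and 3 (9.80% and 3.19%). Among the 100 sites with the most reads 4 resistant tumours and 1 untreated tumour had one in Tnik (7.84% and 1.06%). Among the 300 sites with the most reads of each tumour, both Tnik and Map4k3 were hit in 6 resistant and 4 untreated tumours (11.8% and 4.26%). Map4k3 was hit among the 100 sites with the most reads in 4 resistant tumours (7.84%) and 0 untreated tumours. Its difference was 3.59 percentage points at 100 reads, 2.52 at 0.1% of the reads, 3.89 and 10.7 against TgTum and tgTum libraries alone, 9.47 without shared positions and 3.92 without the 2 mice with most Tnik hits. Map4k4 turned higher in resistant tumours at 2 reads, by 3.42 percentage points. Sites of at least 10 reads where the third deposited number was at least 2, a choice made after the data were seen, left 2 resistant tumours and 1 untreated tumour in each of Tnik and Map4k3 (3.92% and 1.06%).

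**Figure D4:**
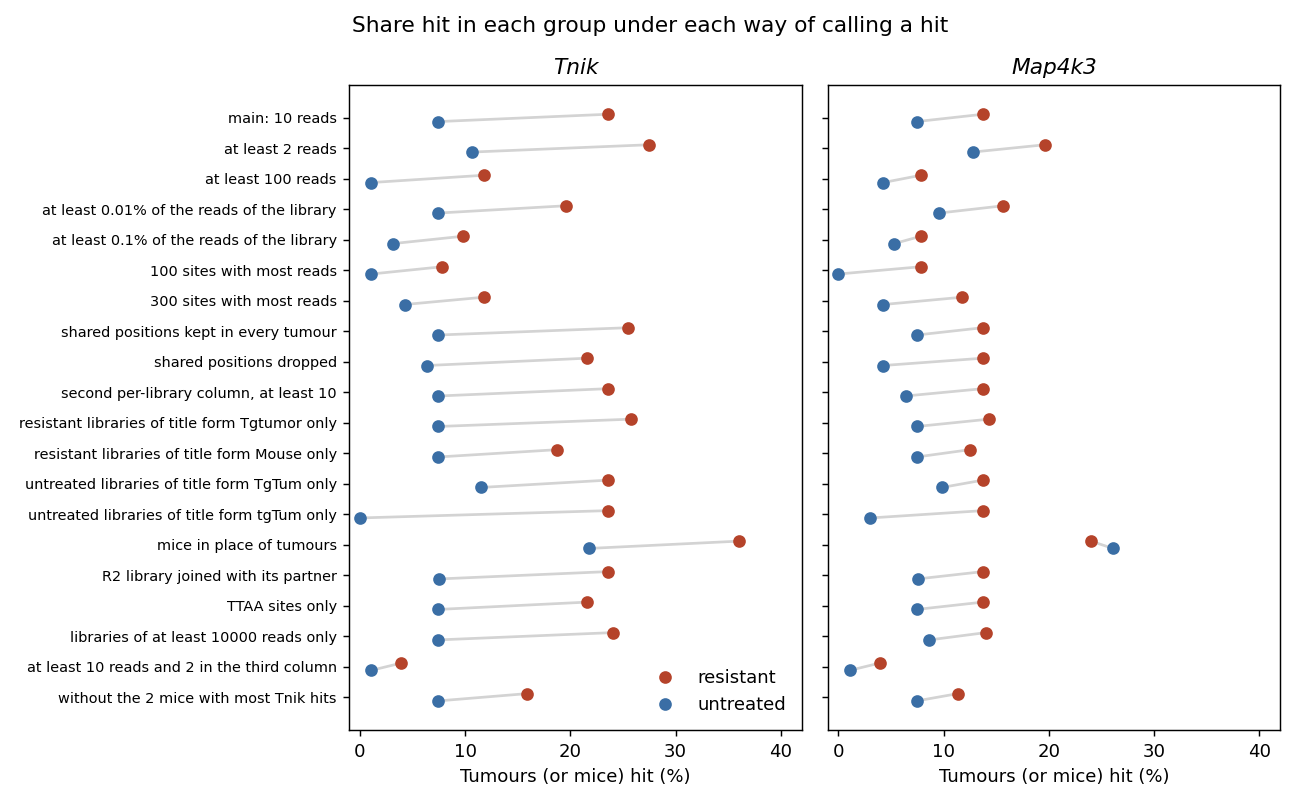
Percent of resistant (red) and untreated (blue) tumours, or mice where named, hit in Tnik (left) and Map4k3 (right) under each way of calling a hit or choosing libraries. The resistant share of Tnik is above the untreated share in every row shown, by 2.86 to 23.5 percentage points, and Map4k3 turns round when mice are counted.

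Of all 2558 tested genes 0 passed the threshold (0%), so the same result for other genes of the pathways around these kinases says nothing about them. Over all tested genes 53.1% had a higher and 46.9% a lower share in resistant tumours. Of 17 other kinases of the germinal centre kinase family, 14 had a gene row and 4 were tested, 1 higher and 3 lower in resistant tumours, with a median difference of -1.20 percentage points against 0.56 over all tested genes. Stk3, which encodes MST2, was hit in 5 resistant and 13 untreated tumours, Stk39, a kinase of ion transporters, in 5 and 11, and Taok1, which can activate p38 and Hippo signalling, in 4 and 7. Of 24 genes of the JNK cascade 17 had a row and 7 were tested, 2 higher and 5 lower (median -1.40). Map3k5, which encodes ASK1, was hit in 11 resistant and 29 untreated tumours and Tab2, an adaptor of TAK1, in 9 and 15, both on chromosome 10, and Map2k4, a kinase that activates JNK, in 5 and 10.

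Of 16 Hippo pathway genes 12 had a row and 10 were tested, 5 higher and 5 lower (median -0.02). Vgll4, which competes with YAP for TEAD factors, was hit in 14 resistant and 17 untreated tumours (27.5% and 18.1%), Wwc1, which encodes KIBRA, in 11 and 12 (21.6% and 12.8%), and Lats1, on chromosome 10, in 10 and 17. Of 16 partners of TNIK and MAP4K4, 14 had a row and 6 were tested, 5 higher and 1 lower (median 2.16). Tcf7l2 was hit in 6 resistant and 11 untreated tumours (11.8% and 11.7%), Strn3, a striatin of the phosphatase complex that holds MAP4K kinases, in 4 and 4, and Msn, which encodes moesin, in 1 and 5. By the Fisher exact test 0 genes of these lists passed, as over all 2558 tested genes, and the smallest unadjusted p was 0.0519, among the partners.

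The genes most often hit in the same tumours as Tnik, by the Jaccard index over all tumours among 741 genes hit in at least 10 tumours outside chromosome 10, were Epha5 (0.346, shared in 9 tumours), Vti1a (0.333, shared in 8) and Adgrb3 (0.321, shared in 9). The median index of the 741 genes with Tnik was 0.115. For Map4k3 they were Ntrk3 (0.240), Rtl4 (0.227) and Agbl4 (0.222), with a median of 0.0789. The tumours shared with Tnik held a median of 991 kept sites for Epha5, 1781 for Vti1a and 1632 for Adgrb3. Those shared with Map4k3 held 1836.5 for Ntrk3, 2660 for Rtl4 and 848.5 for Agbl4, against 473 in all resistant and 431 in all untreated libraries. The part of this in the indices was not tested. Nf1, the gene in the series title, was hit together with Tnik in 7 tumours (5 resistant and 2 untreated, index 0.184) and with Map4k3 in 1 resistant tumour (0.0256).

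Insertions are counted by unstated rules in the authors' deposited table, where Tnik stands at 31.4% of the resistant and 12.8% of the untreated tumours. Its signed −log10 p score there was 1.93 in resistant and 0.149 in untreated tumours. Map4k3, in the authors' deposited table, stood at 23.5% and 17.02%, with scores of 3.87 and 1.28, Map4k4 at 9.80% and 11.7% (0.616 and 0.448) and Mink1 at 0% and 1.06% (0 and 0). By that score Map4k3 ranked above Tnik in the resistant group, whereas Tnik had the higher percent of tumours. The authors' deposited table gave Tnik 11 insertions on the strand of the gene and 8 opposite in resistant tumours, and 9 and 9 in untreated tumours.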

How the data were processed

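Per the labels' protocols, tumour DNA was sonicated, joined to splinkerette adaptors and enriched by PCR from the 5′ transposon arm, then sequenced as paired reads of 100 bp. Per the submitters' processing notes, coordinates are in mm10. Aligner, site caller and filters are not given in the sources used here. For each site and library the authors deposited a read count, not scaled as far as the values show. They also deposited 2 undefined whole numbers per site and library, treated as a score each: in all 233620 entries the numbers could be the largest part and the number of parts of the read count, which the file headers do not state. The numbers of insertions, the percent of tumours and the signed −log10 p score per region are the authors', per the file headers.

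Members and lists were chosen with earlier results of these data known. From the counts, 16 sites with reads in most libraries (over 50%) were dropped, and so were 24 entries of at least 10 reads tied for the most reads. The share of tumours hit was tested per gene (Fisher exact, two-sided) over 2558 genes hit in at least 5 tumours, with Benjamini-Hochberg adjustment at 0.05, in Python 3.11.15 with scipy 1.17.1, after the test was run on simulated data. Strands came from the RefSeq promoter table or, for Tnik and Map4k4, from the extended end of the region, which gave the RefSeq strand in 91.4% of 9754 genes. The 8 deposited bases equalled the GRCm38 sequence at 1010 of 1010 sites inside RefSeq promoter windows. Replicate numbers follow accession order and pair nothing. Genes named beyond the members were the 3 most often hit of each list and the 3 of highest Jaccard index with each member hit in at least 10 tumours.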

Additional observations from a re-analysis of the deposited data

How the results depend on the processing

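Tnik had the higher share in resistant tumours under each of 19 alternatives. The difference ran from 2.86 percentage points (at least 2 in the third column) to 23.5 (tgTum libraries as the untreated group). Adjusted Fisher exact p ran from 0.196 to 1 where Tnik was hit in enough tumours to be tested, which it was not with at least 2 in the third column. With each of 48 mice left out in turn the difference ran from 11.3 to 17.97 percentage points. Map4k3 kept its direction in 18 of 19 alternatives and was reversed over mice (-2.09). With each mouse left out it ran from 2.97 to 8.17. Map4k4 turned higher in resistant tumours with at least 2 reads (3.42), with Tgtumor libraries alone (1.46) and with tgTum libraries as the untreated group (3.92), and it ran from -2.21 to 0.59 with each mouse left out, turning in 4 of 48. Tumours with any member differed by 15.2 percentage points, and mice with any by 0.17 (48% and 47.8%). The 0 genes called became 14 with shared positions kept, 1 with at least 0.1% of reads and 1 with tgTum libraries as the untreated group, and stayed 0 in the other 17. Sites of at least 100 reads had the orientation of the gene in 75% of 8 Tnik sites (50% of 26 at 10 reads) and 0% of 3 Map4k4 sites (50% of 6). The share over all genes is given only for sites of at least 10 reads. The cause of these changes was not tested. Leaving out mice and the third column were chosen after the data were seen. No paired analysis was possible because replicate numbers follow accession order and no mouse has tumours in both groups. Near the limit of 10 reads, Tnik had 3 sites of 10 to 12 reads and 1 of 8 or 9, Map4k3 1 and 2, and Map4k4 0 and 2. Resistant tumours 10, 21 and 32 were hit in Tnik only through sites of 12 or 13 reads, and untreated tumour 16 through a site of 11.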

Other observations

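Map4k5, the member without a gene row, was looked at after the data were seen, over its RefSeq gene at positions 69803757 to 69893163 of chromosome 12. It held 9 deposited sites, of which 5 had at least 10 reads in the tumour with the most reads, in 2 resistant tumours (13 and 14) and 3 untreated tumours (6, 11 and 86). The reads were 208 and 46 in the resistant tumours and 12, 60 and 126 in the untreated tumours. Both resistant sites had the orientation of the gene and the 3 untreated sites lay against it. The site of 208 reads, at 69890323 in resistant tumour 13, also had reads in 3 other libraries, 26 of them in untreated tumour 43. Without the rule of the highest count, that untreated tumour would be hit in the orientation of the gene. With 5 sites no order can be read from this. Resistant tumour 13 was hit in Tnik and Map4k3 as well.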
